A study of Rattus norvegicus with 14 samples.

Results

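The colonic epithelium lies next to the ammonia that bacteria release from protein, and 9 enzymes of ammonia, urea cycle and glutamine metabolism were compared in colonocytes between a normal-protein and a high-protein diet. They were the 5 urea cycle enzymes Cps1, Otc, Ass1, Asl and Arg1, the second arginase Arg2, glutamine synthetase (Glul), glutamate dehydrogenase (Glud1) and ornithine aminotransferase (Oat). Every non-control probe whose gene name equalled one of these symbols was taken, which gave 9 probes of 9 genes among the 30367 probes and 26276 gene names of the array. The question was whether the high-protein diet, which brings more amino nitrogen to the colon, went with a different mRNA level of these enzymes.

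Young male Wistar rats were fed ad libitum for 15 days. The normal-protein diet (NPD) had 14% of its energy as protein, from whole milk, and the high-protein diet (HPD) had 55%. The diets were isocaloric and the added protein took the place of starch and sucrose, so that protein and digestible carbohydrate differed together. Colonocytes, the epithelial cells of the colon, were detached with EDTA from the colon without its last segment, which leaves a mixture of epithelial cell types. Their RNA was labelled with 1 dye and hybridised to 1-colour Agilent arrays, 1 array for each rat. The comparison used 7 arrays of each diet. Signals are given as log2 of the background-subtracted signal of the spot minus the median of its array, so that 0 is the typical probe of that array and a difference of 1 is a doubling.

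Ammonia in tissues is disposed of by several routes. In the liver, carbamoyl-phosphate synthetase (Cps1) fixes it in mitochondria, ornithine transcarbamylase (Otc) makes citrulline, argininosuccinate synthetase (Ass1) and lyase (Asl) make arginine, and arginase (Arg1) releases urea and ornithine. Glutamine synthetase joins ammonia to glutamate, and glutamate dehydrogenase adds or removes ammonia in the exchange between glutamate and 2-oxoglutarate. Ornithine aminotransferase and the mitochondrial arginase Arg2 link arginine and ornithine to glutamate and proline. Colonocytes are known to use glutamine as a fuel.

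The probes are shown first because a signal is that of the 60 bases on the glass and not of the whole mRNA. The 3 probes of the first urea cycle enzymes span a splice junction, as their genomic spans are longer than the probe. The 5 sequences given have a reading frame free of stop codons and were taken as coding sequence. They are written 5′ to 3′ in lower case with no part marked.
Cps1: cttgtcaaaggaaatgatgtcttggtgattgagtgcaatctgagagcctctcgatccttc
Otc: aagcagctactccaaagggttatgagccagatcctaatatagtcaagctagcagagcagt
Ass1: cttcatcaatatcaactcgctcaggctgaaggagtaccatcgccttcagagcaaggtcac
Asl: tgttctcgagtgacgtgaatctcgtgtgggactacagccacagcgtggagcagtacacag
Arg2: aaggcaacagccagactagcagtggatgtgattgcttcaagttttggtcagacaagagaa
In the rat genome build rn4 of the array design, the Cps1 probe lay at chr9:66002449-66003777 on the plus strand, over 1329 bases. The Otc probe lay at chrX:24619355-24624560 on the minus strand, over 5206 bases, and the Ass1 probe at chr3:10620727-10622079 on the plus strand, over 1353 bases. The Asl probe, at chr12:27720030-27720089, and the Arg2 probe, at chr6:101927878-101927937, each lay on the plus strand within 60 bases. The Arg1 probe was printed in 10 spots on each array and the others in 2. The Glul probe has no position in the array design, and its bases are 23.3% G or C, the lowest share of the 9 probes.

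The arrays were first checked for the cells they hold. All 7 markers of absorptive colonocytes, all 8 of the epithelium and all 7 of goblet cells were well above background on all 14 arrays, as were 8 of 14 immune and 7 of 10 stromal and muscle markers. Of 5 hepatocyte markers, Apoa1 and Ttr were well above background on all 14 arrays and Serpina1 on 5 of 7 arrays of each diet. Alb and Fga were not well above background on any array. The summed level of the absorptive markers was higher with the HPD, at 11.79 to 12.56 against 11.63 to 12.13 (exact two-sided permutation test, p = 0.0315). That of 3 red blood cell genes was higher too, at 4.76 to 6.49 against 4.34 to 5.09 (exact two-sided permutation test, p = 0.00466). Signals were summed before the log, so bright genes weigh most. Singly, 2 of the 7 absorptive and 1 of the 3 red blood cell genes were higher with the HPD at an unadjusted p under 0.05 (limma). So were 3 of 14 immune, 2 of 10 stromal and muscle, 2 of 8 epithelial and 1 of 7 goblet markers. At the same level 1 epithelial, 1 goblet and 1 stem and cycling marker were lower. Over all probes 10.2% were higher and 3.35% lower. Among the red blood cell genes, Hba-a2 differed by 0.59 on the log2 scale, Hbb by 0.14 and Alas2 by 0.15. Summed levels of immune markers were 4.05 to 5.26 in the NPD group and 4.21 to 4.58 in the HPD group (exact two-sided permutation test, p = 0.44). In the same test, p ran from 0.216 to 0.965 for epithelial, goblet, enteroendocrine, stem and cycling, stromal and muscle, and hepatocyte markers. These p-values were not adjusted over the lists, and the median of all probes was itself 0.17 higher in the HPD group. The part of these cell types in the values of the enzymes was not tested, and fewer cells of a type cannot be told apart from less RNA per cell. An array had from 18835 to 20967 probes well above background, and precision is limited by the number of arrays. The arrays came from 2 slides, with 4 of the NPD and 3 of the HPD arrays on slide 1 and the rest on slide 2. HPD arrays were dimmer before centring. Their median background-subtracted signals were 103 to 130 against 150 to 180 in the NPD group on slide 1. On slide 2 they were 89 to 122 against 113 to 149. The part of this brightness in the diet differences of dim probes was not tested.

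None of the 9 enzymes passed the test for a difference between the diets. limma called 0 of 9 at a q-value below 0.1, where it called 21 of 30367 probes (0.0692%), and 0 of 9 at an unadjusted p under 0.05, a level at which 10.2% of all probes were higher and 3.35% lower in the HPD group. Exact permutation tests over the 1716 distinct splits of the arrays gave 0 of 9 under 0.05, with p from 0.206 to 0.769. For 0 of the 9 did the diets separate without overlap, against 0.286% of all probes. Of the 8 enzymes that were detected, 4 had a higher and 4 a lower mean with the HPD. The median of their log2 differences was -0.0080. The median over all probes was 0.17 in favour of the HPD, and 0.11 over the 18382 probes well above background on all arrays of 1 or both diets. Relative to the median of all probes 1 of the 8, Glud1, was above, by 0.044. Relative to the 0.113 of the probes well above background, Glud1 at 0.21 and Oat at 0.13 were above. After cyclic loess normalization, which brought the median of all probes to 0.00067, 3 of the 8 were higher and 5 lower.

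**Figure D1:**
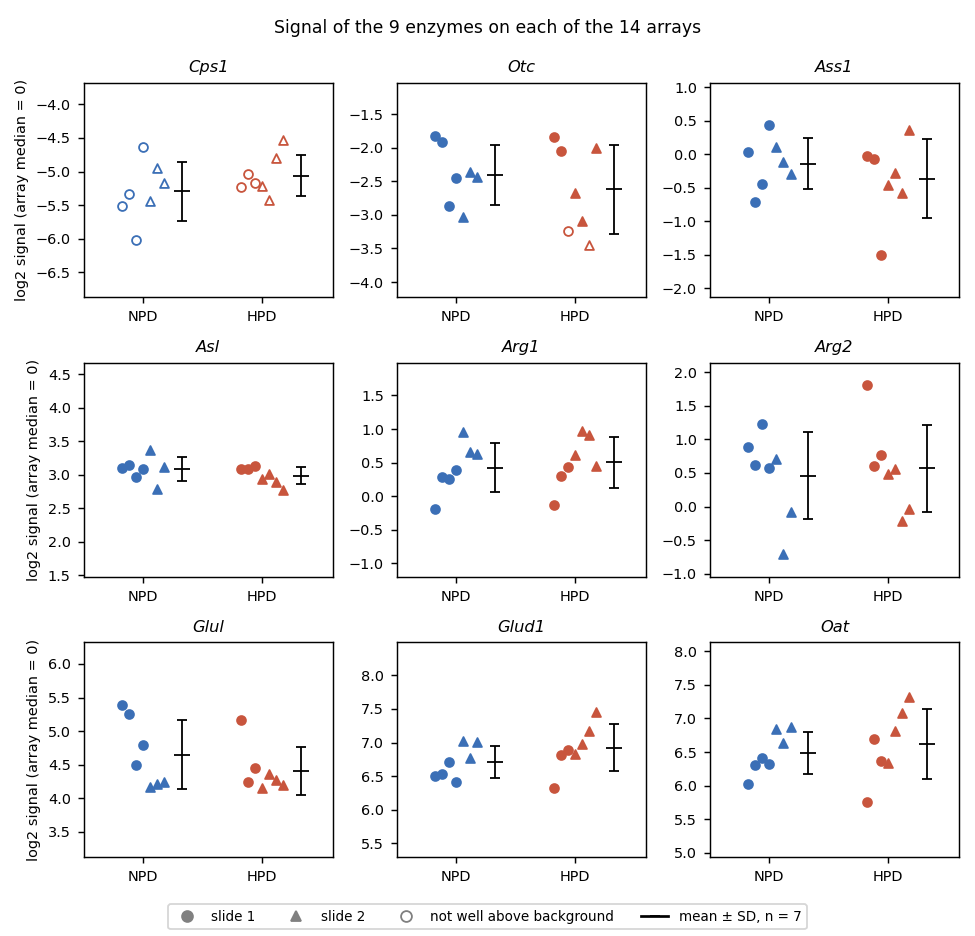
Log2 signal relative to the array median (vertical axis, the same height in log2 units in each panel) of the 9 enzymes on each of the 7 NPD (blue) and 7 HPD (red) arrays, with circles for slide 1, triangles for slide 2 and open symbols where the probe was not well above background. Black bars are the mean ± SD; the values of the diets overlap in every panel, and the Cps1 probe is open on all 14 arrays.

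The first 2 enzymes of the urea cycle, both mitochondrial, gave the probe without a detected signal and the one detected on part of the HPD arrays. The Cps1 probe was not well above background on any of the 14 arrays. Its signal ran from -6.02 through a median of -5.33 to -4.64 in the NPD group and from -5.43 through -5.17 to -4.54 in the HPD group, so no fold is given. Otc was well above background on 7 of 7 NPD arrays and on 5 of 7 HPD arrays. Its log2 signal ran from -3.03 through a median of -2.43 to -1.82 in the NPD group and from -3.44 through -2.67 to -1.84 in the HPD group. Each group thus held bright and dim arrays, and the highest value of each diet was on its replicate 1. The means were -2.41 ± 0.45 and -2.62 ± 0.66 (SD, n = 7), a log2 difference of -0.21 with a 95% interval of -0.81 to 0.39 (limma, adjusted p = 0.664). With 1 array left out it ran from -0.34, without HPD replicate 1, to -0.072, without HPD replicate 6.

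The 2 enzymes that turn citrulline into arginine were measured on all 14 arrays and differed in how steady they were. Ass1 ran from -0.71 through -0.12 to 0.43 in the NPD group and from -1.50 through -0.28 to 0.37 in the HPD group. Its lowest value, on HPD replicate 3, lay below every NPD array, and the other 6 HPD values lay inside the NPD range. The log2 difference was -0.22 with a 95% interval of -0.75 to 0.31 (limma, adjusted p = 0.602). It rested on single arrays, at -0.034 without HPD replicate 3 and -0.35 without HPD replicate 7, which held the highest HPD value. Asl ran from 2.79 through 3.098 to 3.37 in the NPD group and from 2.77 through 3.02 to 3.13 in the HPD group. Its residual SD of 0.15 was at the 6.93 percentile of the 17432 probes well above background on all arrays, so that its interval is the narrowest of the 8. The log2 difference of Asl was -0.096 with a 95% interval of -0.32 to 0.13, that is 0.936 times the NPD level, between 0.799 and 1.10 times (limma, adjusted p = 0.604). In the deposited table, the difference of Asl was -0.29 (limma, unadjusted p = 0.0411, adjusted p = 0.202), and -0.24 with slide as a block (limma, unadjusted p = 0.0262, adjusted p = 0.141). Of all rows of that table, 23.4% had an unadjusted p under 0.05 in the first of these fits and 26.9% in the second.

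Neither arginase passed the test, and the diets overlapped widely in both. Arg1, the cytosolic arginase that closes the cycle, ran from -0.19 through 0.38 to 0.96 in the NPD group and from -0.13 through 0.45 to 0.97 in the HPD group. These ranges almost coincide, and the log2 difference was 0.080 with a 95% interval of -0.34 to 0.50 (limma, adjusted p = 0.817). Without NPD replicate 1, which held the lowest NPD value, the difference was -0.023. Arg2 ran from -0.71 through 0.61 to 1.23 in the NPD group and from -0.21 through 0.56 to 1.80 in the HPD group. Its residual SD of 0.65 was at the 95.2 percentile of probes well above background on all arrays, the highest of the 8. The log2 difference of Arg2 was 0.11 with a 95% interval of -0.58 to 0.79 (limma, adjusted p = 0.851). It was -0.099 without HPD replicate 1 and -0.088 without NPD replicate 6.

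The enzymes of glutamate and glutamine had the lowest unadjusted p among the 8, and neither passed the test. Glul, which makes glutamine, ran from 4.16 through 4.50 to 5.38 in the NPD group and from 4.15 through 4.28 to 5.17 in the HPD group. Of the 7 HPD arrays, 6 lay below the NPD mean, and HPD replicate 1 at 5.17 stood apart from the other 6, which spanned 4.15 to 4.46. The means were 4.65 ± 0.51 and 4.41 ± 0.35 (SD, n = 7), a log2 difference of -0.24 with a 95% interval of -0.72 to 0.23 (limma, adjusted p = 0.532), and -0.37 without HPD replicate 1 or -0.12 without NPD replicate 1. Within slide 1 the difference was -0.36 and within slide 2 it was 0.039.

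Glud1 ran the other way. It spanned 6.41 through 6.70 to 7.02 in the NPD group and 6.33 through 6.89 to 7.45 in the HPD group, with 6 of 7 HPD arrays above the NPD mean. The means were 6.71 ± 0.24 and 6.92 ± 0.35 (SD, n = 7), a log2 difference of 0.21 with a 95% interval of -0.13 to 0.56 (limma, adjusted p = 0.461). The difference was 0.14 within slide 1 and 0.17 within slide 2. Without HPD replicate 1, the difference of Glud1 was 0.31, with an exact two-sided permutation p of 0.0425, and 0.0362 within slides. That array held the lowest HPD value, so leaving it out raises the difference by construction. The median of all probes was then 0.22. Over all alternatives the lowest adjusted p of Glud1 was 0.206 (limma). Oat, which makes glutamate semialdehyde from ornithine, spanned 6.03 through 6.41 to 6.88 in the NPD group and 5.75 through 6.70 to 7.31 in the HPD group. The HPD values spread to both sides of the NPD range, and the log2 difference was 0.13 with a 95% interval of -0.34 to 0.60 (limma, adjusted p = 0.727). With 1 array left out it ran from 0.017, without HPD replicate 7, to 0.28, without HPD replicate 1.

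**Figure D2:**
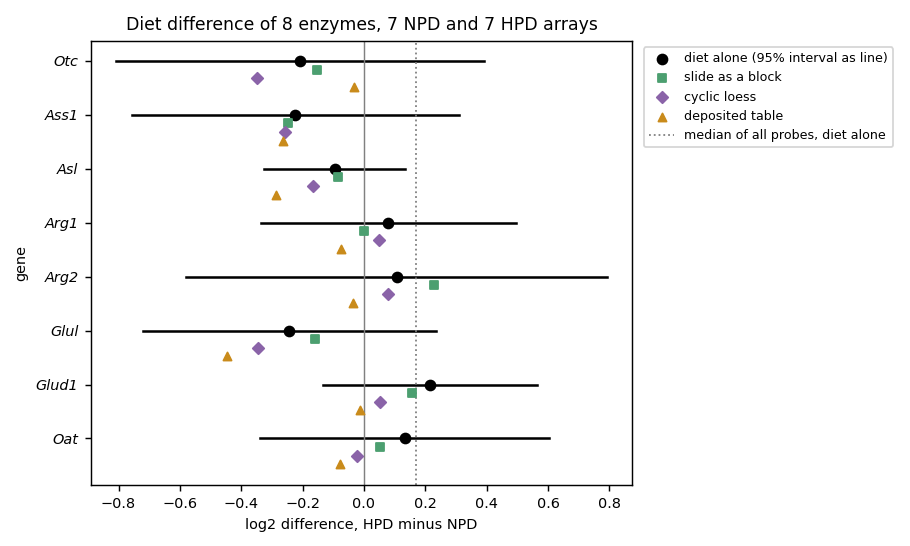
Log2 difference between the diets, HPD minus NPD (horizontal axis), for the 8 detected enzymes, with 7 arrays a diet. Black points and lines are the estimate and 95% interval from the fit of diet alone, all of which include 0; coloured symbols are the estimates with slide as a block, after cyclic loess and from the deposited table, and the dotted line is the median of all probes at 0.17.

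The slide on which an array lay went with differences that passed the test in some of the enzymes. In a fit of diet and slide together, limma called slide in 5 of the 9 enzymes at a q-value below 0.1, against 42.1% of all probes. From slide 1 to slide 2, Arg1 rose by 0.55, Oat by 0.57 and Glud1 by 0.41 on the log2 scale, whereas Arg2 fell by 0.85 and Glul fell by 0.58 (limma, adjusted p from 0.00631 to 0.0182). In the same fit Ass1 differed by 0.18 between the slides and by -0.25 between the diets, and Asl by -0.087 and -0.083, none of which passed. The 7 Glul values of slide 1 ran from 4.25 to 5.38 and those of slide 2 from 4.15 to 4.36. The slides were scanned as separate runs, and the rats and RNA on each differed too, which cannot be told apart from the slide.

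With slide as a block, limma still called 0 of 9 enzymes for the diet (0.079% of all probes), and 0 of 9 had an unadjusted p under 0.05 (17.5% of all probes in either direction). The diet difference of Arg1, which had been 0.080, was 0.00072 with a standard error of 0.13. That of Glul was -0.16 and that of Arg2 0.23, with standard errors of 0.17 and 0.24. The exact permutation test over the 1225 regroupings within slides put 0 of 9 under 0.05, with Glud1 lowest at p = 0.198 (two-sided).

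**Figure D3:**
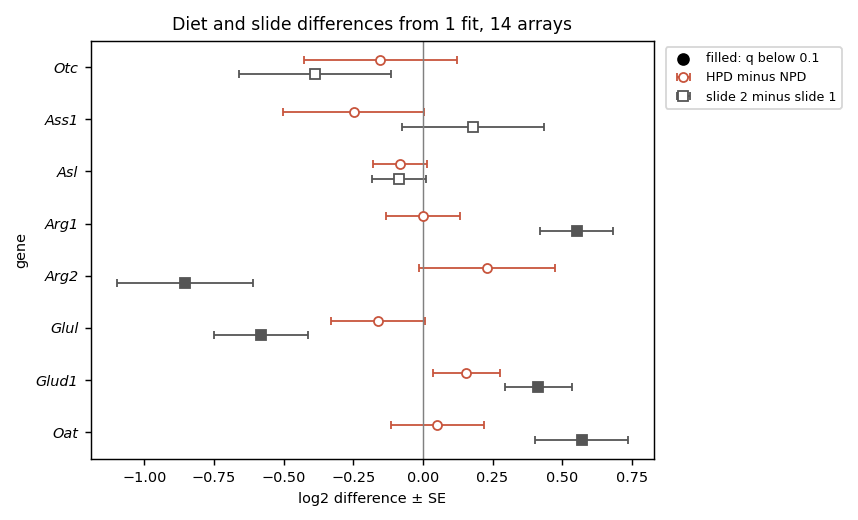
Diet difference (HPD minus NPD, red circles) and slide difference (slide 2 minus slide 1, grey squares) of the 8 detected enzymes from 1 fit of the 14 arrays, in log2 units ± SE. Filled symbols passed a q-value of 0.1: the slide difference of Arg1, Arg2, Glul, Glud1 and Oat, and no diet difference.

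A few arrays held many of the extreme values of their diet. HPD replicate 1 had the highest or the lowest value of the 7 HPD arrays in 6 of the 8 detected enzymes, with Otc, Arg2 and Glul highest and Arg1, Glud1 and Oat lowest. NPD replicate 1, on the same slide, had Otc and Glul highest and Arg1 and Oat lowest of the 7 NPD arrays. On slide 2, NPD replicate 5 had 5 extremes, with Asl, Arg1 and Glud1 highest and Otc and Glul lowest, and HPD replicate 7 had 4, with Ass1, Glud1 and Oat highest and Asl lowest. The other 10 arrays had 0 to 2 each. Among the enzymes, Glud1 and Oat varied together over the 14 arrays after each value was centred within its slide. Pearson's r was 0.839 and Spearman's rho 0.859 (permutation tests within slides with 100000 resamples, p = 0.00057 and p = 0.00042, adjusted over 21 pairs to 0.012 and 0.0088). It was 0.754 within slide 1 and 0.916 within slide 2, with 7 arrays each, and 0.860 without the 2 arrays farthest from the median of Glud1. The other 20 pairs ranged from -0.511, for Glul and Glud1, to 0.405 and did not pass the adjustment.

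Many other genes varied with Glud1 in the same way. Of 15288 genes well above background on all arrays, 182 had an r above 0.9 with Glud1 in the same values, led by Abhd14a at 0.964, Tmem126b at 0.959 and Trub2 at 0.953. Glul had 8 such genes, led by Angel2 at 0.924, Ctdsp1 at 0.921 and the probe A_64_P000577 at 0.920. These arrays share 2 slides and 1 labelling method, and the values are given as a description.

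The wider handling of nitrogen was followed in a list of 57 further genes in 7 groups, of which 56 were on the array, each taken by its brightest probe. limma called 0 of the 56 at a q-value below 0.1 (0.0685% of all genes). At an unadjusted p under 0.05, 5 were higher (10.5% of all genes) and 3 lower (3.35%) in the HPD group, with a list median of 0.17 on the log2 scale, as for all probes. Of the 56, 43 were detected, which here means a probe well above background on all arrays of 1 or both diets. Calls depended on the processing: normexp background correction called 22 of the 56 (38.9% of all probes) and the deposited values fitted with slide as a block called 8 (10.5% of the rows of that table), with Nos2 higher and Got1, Cad and Gcsh lower in both. In the fit of diet and slide, limma called slide in 25 of the 56 at a q-value below 0.1, against 42.1% of all probes. In each group the 2 detected genes with the lowest unadjusted p are named.

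**Figure D4:**
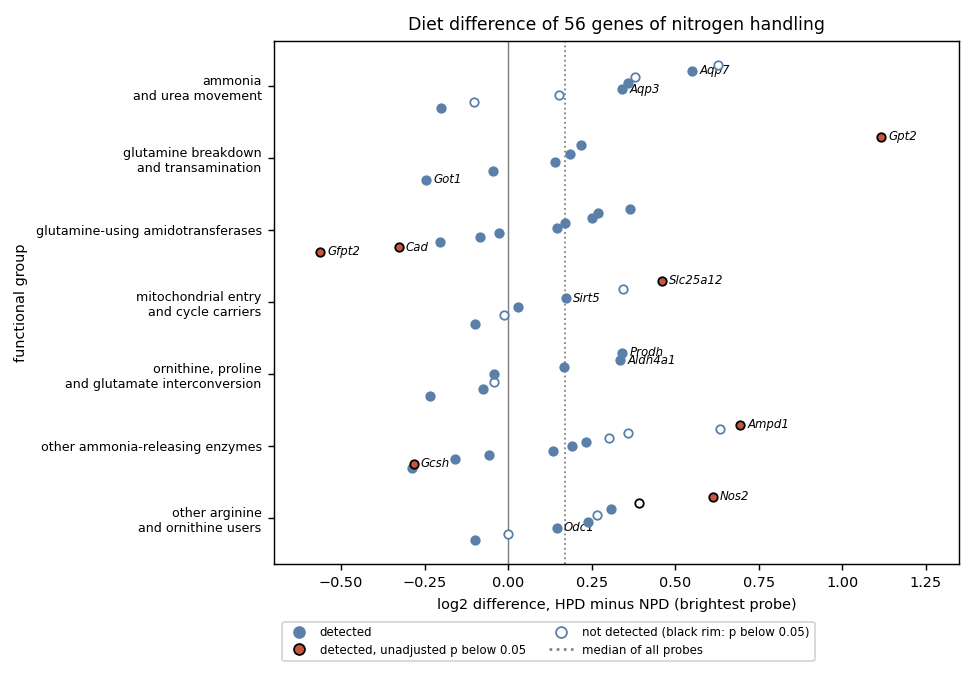
Log2 difference between the diets, HPD minus NPD (horizontal axis), of the brightest probe of 56 genes in 7 functional groups (vertical axis), with 7 arrays a diet. Filled points were detected, red points had an unadjusted p below 0.05, and the dotted line is the median of all probes at 0.17; 0 of the 56 passed a q-value of 0.1.

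Among the genes that use arginine and ornithine outside the cycle, inducible nitric oxide synthase (Nos2) had the lowest unadjusted p. Its log2 signal was dim, at -2.02 ± 0.28 in the NPD and -1.41 ± 0.28 in the HPD group (SD, n = 7), a difference of 0.61. All 7 HPD values exceeded the NPD mean. The exact permutation p (two-sided) was 0.0035, and 0.00408 when regrouped within slides. Across all probes it did not pass the adjustment (limma, adjusted p = 0.363). Ornithine decarboxylase (Odc1), which starts polyamine synthesis, differed by 0.14 (limma, adjusted p = 0.494). Of the 8 genes of this group, 2 were higher with the HPD at an unadjusted p under 0.05 (10.5% of all genes). The other was Nos1, whose probe was not well above background on any array.

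Of the 10 amidotransferases, which take the amide nitrogen of glutamine, 2 were lower after the HPD at an unadjusted p under 0.05 (3.35% of all genes). The group was evenly split in direction, with 5 positive and 5 negative log2 differences and a median of 0.059. Cad, which holds the glutamine-using carbamoyl-phosphate synthetase of pyrimidine synthesis, was 2.51 ± 0.10 in the NPD and 2.18 ± 0.22 in the HPD group (SD, n = 7). All 7 HPD arrays lay below the NPD mean. The log2 difference was -0.33, with an exact permutation p of 0.00291 (two-sided) and an adjusted p of 0.363 in limma. Gfpt2, which starts hexosamine synthesis, differed by -0.56 (limma, adjusted p = 0.363) and by -0.33 without HPD replicate 7. Its probe was dim, with a mean of -2.39, and well above background on 7 of 7 NPD and 5 of 7 HPD arrays. The 3 probes of Pfas, an enzyme of purine synthesis, disagreed, with the brightest at 0.17 and the others at -0.56 and 0.46.

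Of the 6 genes of glutamine breakdown and transamination, 1 was higher with the HPD at an unadjusted p under 0.05 (10.5% of all genes). This was the mitochondrial alanine aminotransferase Gpt2, at -1.77 ± 1.02 in the NPD and -0.65 ± 1.03 in the HPD group (SD, n = 7), a log2 difference of 1.12 (limma, adjusted p = 0.363). Its residual SD was at the 99.0 percentile of probes well above background on all arrays. In the fit of diet and slide, Gpt2 differed by 1.47 between the slides (limma, adjusted p = 0.00550) and by 0.91 between the diets. A second, dimmer Gpt2 probe, well above background on 5 of the 14 arrays, differed by -0.28, so the probes of this gene disagree. The cytosolic aspartate aminotransferase Got1 differed by -0.25 (limma, adjusted p = 0.367).

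A further group held 6 genes of mitochondrial entry into the cycle and of its carriers. The aspartate-glutamate carrier Slc25a12 was 4.77 ± 0.33 in the NPD and 5.23 ± 0.35 in the HPD group (SD, n = 7). Its log2 difference was 0.46 (limma, adjusted p = 0.363), and its second probe differed by 0.10. In the fit of diet and slide, Slc25a12 differed by 0.52 between the slides (limma, adjusted p = 0.00483) and by 0.39 between the diets. The deacylase Sirt5, which acts on Cps1 in liver, differed by 0.17 (limma, adjusted p = 0.482). Nags, which makes the activator of Cps1, was well above background on all 14 arrays and differed by -0.10, while the ornithine carriers Slc25a15 and Slc25a2 were not well above background on any array. Of the 7 genes between ornithine, proline and glutamate, 0 had an unadjusted p under 0.05 (13.9% of all genes in either direction). Proline dehydrogenase (Prodh) differed by 0.34 and Aldh4a1, the next enzyme toward glutamate, by 0.33 (limma, adjusted p = 0.367 for both). Their second probes differed by -0.023 for Prodh, well above background on 10 of the 14 arrays, and by 0.39 for Aldh4a1.

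Of 11 other enzymes that release ammonia, 1 was higher (10.5% of all genes) and 1 lower (3.35%) at an unadjusted p under 0.05. The glycine cleavage protein Gcsh was 1.90 ± 0.11 in the NPD and 1.62 ± 0.23 in the HPD group (SD, n = 7), a log2 difference of -0.28, and its second probe differed by -0.31 (limma, adjusted p = 0.363 for both). AMP deaminase 1 (Ampd1), the muscle form of the enzyme, differed by 0.69 (limma, adjusted p = 0.363). Its probe was dim, with a mean of -1.41. Of 8 genes that move ammonia, urea or water, 0 had an unadjusted p under 0.05 (13.9% of all genes in either direction). The aquaglyceroporins Aqp7 and Aqp3 differed by 0.55 and 0.34 (limma, adjusted p = 0.367 and 0.372), and the ammonia transporter Rhbg, on all 14 arrays, by -0.20. The Aqp7 probe was dim, with a mean of -1.82. In this group, probes not well above background on any array differed by 0.38 (Rhcg), 0.15 (Aqp9) and -0.10 (Slc14a1).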

How the data were processed

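RNA of isolated colonocytes was measured on 14 1-colour Agilent SurePrint arrays. The scanner files that the authors deposited, made with Agilent Feature Extraction 10.7.3.1 per the labels, give each spot's intensity on a linear scale. The authors also deposited log2 values that they had normalized and averaged by gene name, and these served only as an alternative. Groups and replicate numbers came from the sample titles, and the array removed from each group by the authors was not analysed here. The number of columns of other samples was 0.

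Control spots and outlier-flagged spots were left out, the background-subtracted intensity was log2-transformed and centred on the median of each array, and spots of a probe were averaged. The diet term was fitted with lmFit and eBayes of limma 3.58.1 in R 4.3.3 (files read with the data.table package, version 1.17.8) over all 30367 probes with no filter on signal. P-values were adjusted by Benjamini-Hochberg, and probes were called at q below 0.1. A gene was detected where its probe was well above background on all arrays of 1 or both diets. Levels of single enzymes were further tested by exact permutation, two-sided. Where a gene had several probes, the brightest was used. The fit was tested on simulated data.

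The members and lists were chosen with earlier results of these data known. Named genes were all 9 enzymes, every called gene of the list, the 2 detected genes of each group with the lowest unadjusted p, and the 3 genes most like Glud1 and Glul; other genes were named after their values were seen. Single values of some list genes are not reported here. Symbols were taken from the array design, and all 9 matched RefSeq by symbol. Alternatives were another signal column, centring on the 75th percentile, quantile, cyclic loess, normexp with an offset of 50, a filter on dim probes, slide or replicate number as a block, a variance trend, a q-value below 0.05, the deposited table, the mean of a gene's probes, and leaving out each array.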

Additional observations from a re-analysis of the deposited data

Results flagged for a closer look

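In a group of 7 arrays, a value was looked at again where its gap to the nearest other value, divided by the range of the group, was above the 95% critical value of Dixon's test. Chance marks about 1 in 20 groups, and 3 of the 46 groups examined were marked. Glul was 5.17 on HPD replicate 1 and between 4.15 and 4.46 on the other 6 HPD arrays. Without that array its log2 difference was -0.37. Prodh was 2.28 on the same array and between 2.90 and 3.28 on the others, and its difference was 0.45 without it. Gfpt2 was -4.07 on HPD replicate 7 and between -2.91 and -2.07 on the others, with a difference of -0.33 without it. The cause was not tested.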

How the results depend on the processing

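Of the 9 enzymes, limma called 0 under every alternative except normexp, which called 1, Cps1, whose probe was not well above background on any array. For the other 8 enzymes the lowest adjusted p over all alternatives was 0.115. An exact permutation p under 0.05 was reached by 1 enzyme with the median pixel signal and with normexp, both overall and within slides (Cps1), by 1 within slides in the deposited table (Asl), and by 0 or 1 when an array was left out (1, Glud1, without HPD replicate 1). The alternatives called 0 of the 56 list genes, except 22 with normexp (17 higher, 5 lower, where 38.9% of all probes were called) and 8 when slide was a block in the fit of the deposited table (where 10.5% of its rows were called), of which 2 were higher (Nos1, Nos2) and 6 lower (Got1, Cad and Gcsh among them). The probes called of 30367 numbered 21 (0 lower), 11809 with normexp (1597 lower, and 3057 of the 11809 well above background on all arrays), 18 of 26414 rows in the deposited table (7 lower) and 2767 when slide was added to that fit (1717 lower), 40 after cyclic loess with slide as a block (14 lower), and 13 to 59 with an array left out, 59 being without HPD replicate 1 and 13 without NPD replicate 4 or HPD replicate 5.

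Directions of small differences turned. Otc was 0.090 with the median pixel signal and 0.13 with normexp. Oat was -0.028 after quantile normalization, -0.023 after cyclic loess, -0.052 after cyclic loess with slide as a block, -0.0013 with normexp, -0.078 in the deposited table and -0.12 there with slide as a block. Arg1 was -0.076 and -0.12 in those 2 fits of the deposited table, -0.028 after cyclic loess with slide as a block, and -0.023 (without NPD replicate 1) to 0.19 with an array left out. Glud1 was -0.013 and -0.026, Sirt5 -0.025 and -0.047 and Odc1 -0.064 and -0.065 in those 2 fits. Arg2 was -0.035 in the deposited table and -0.099 (without HPD replicate 1) to 0.24 with an array left out, also below 0 without NPD replicate 6, at -0.088, and Gfpt2 was 0.027 with normexp. Left-out arrays moved Asl between -0.14 and -0.048 and Glud1 between 0.13 and 0.31. Ass1, Asl and Glul were lower in the HPD group under every alternative, 14 of which left out 1 array each. Within single slides this held for Ass1 alone, at -0.36 on slide 1 and -0.14 on slide 2. Asl differed by 0.026 and -0.19, and Glul by -0.36 and 0.039. The cause was not tested.

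With the replicate number as a block 11 probes were called and 0 of the 9 enzymes. Deviations of same-numbered arrays correlated from -0.16 to 0.67, with 4 of the 14 arrays correlating best with their own number, so the numbers were not taken as pairs.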
